A study of Homo sapiens with 6 samples.

Results

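The subunits of the oxidative phosphorylation (OXPHOS) machinery were examined by respiratory complex in TC28a2 cells, an immortalized human chondrocyte line, after treatment with mocetinostat or its solvent. The genes were chosen by name: NDUFA, NDUFB, NDUFC, NDUFS and NDUFV genes, SDHA to SDHD, UQCR genes, COX4 to COX8 genes and ATP5 genes, without pseudogenes, and the mitochondrially encoded ND, CO, CYB and ATP genes. The names matched 105 of 60623 gene rows, of which 98 are subunit genes, 2 are retrogene copies (UQCRHL and ATP5MGL) and 5 are readthrough, divergent or antisense loci. Another 149 rows of the same names were left out as pseudogenes, which are names ending in P and a number. MT-ATP6 and MT-ATP8 end that way too and were kept. Of the 98 subunit genes, 85 lie in the nucleus, with 36 in complex I, 4 in complex II, 8 in complex III, 19 in complex IV and 18 in complex V, and 13 lie in mitochondrial DNA (mtDNA), with 7 in complex I, 1 in complex III, 3 in complex IV and 2 in complex V. NDUFA4 and its paralog NDUFA4L2 were placed in complex IV, where the NDUFA4 protein is now assigned. ATP5MD and ATP5MPL are older symbols of ATP5MK and ATP5MJ.

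Cells received 2 µM mocetinostat, an inhibitor of class I histone deacetylases, or DMSO for 24 h, and total RNA was sequenced after depletion of ribosomal sequences. Each group had 3 libraries, which the study describes as 3 independent experiments with 1 cell line. The labels give neither group any further treatment or genetic change.

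OXPHOS couples the transfer of electrons from nutrients to oxygen with the synthesis of ATP. Complex I (NADH dehydrogenase) and complex II (succinate dehydrogenase) feed electrons to ubiquinone, complex III (cytochrome bc1) passes them to cytochrome c, complex IV (cytochrome c oxidase) passes them to oxygen, and complex V (ATP synthase) uses the proton gradient so formed. Every complex except complex II is built from subunits of both genomes, so its assembly draws on nuclear transcription and on transcription of mtDNA. Nuclear subunit genes are known targets of NRF1, of the GABPA and GABPB1 dimer, of YY1 and of the estrogen-related receptors, with the coactivators of the PPARGC1 family. Chondrocytes live in poorly oxygenated cartilage and rely largely on glycolysis.

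Promoter stretches are shown because they hold, or in 1 case lack, the letters of known motifs of these regulators. They come from the RefSeq promoter table on GRCh38.p14, each read 5′ to 3′ on the gene's strand and counted back from the first start site listed for the gene. Capitals mark GCATGCGC (NRF1), CCGGAAG (GABPA) or AANATGGC (YY1) on either strand. The first 6 genes were lower after mocetinostat, and COX5B and COX7C of complex IV were not.
NDUFS3 (chr11:47578964-47579028, plus strand, bases 110 to 46 before the start): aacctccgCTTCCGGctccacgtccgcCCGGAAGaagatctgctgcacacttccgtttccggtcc
NDUFA1 (chrX:119871734-119871831, plus strand, bases 98 to 1 before the start): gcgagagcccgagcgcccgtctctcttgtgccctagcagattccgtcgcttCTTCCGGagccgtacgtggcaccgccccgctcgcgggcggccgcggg
ATP5MC2 (chr12:53676084-53676175, minus strand, bases 92 to 1 before the start): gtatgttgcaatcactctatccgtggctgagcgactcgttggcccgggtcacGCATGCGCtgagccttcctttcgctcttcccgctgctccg
NDUFB4 (chr3:120596146-120596235, plus strand, bases 190 to 101 before the start): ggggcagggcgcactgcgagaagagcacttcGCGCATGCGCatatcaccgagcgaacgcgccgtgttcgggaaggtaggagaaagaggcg
NDUFS8 (chr11:68030471-68030540, plus strand, bases 210 to 141 before the start): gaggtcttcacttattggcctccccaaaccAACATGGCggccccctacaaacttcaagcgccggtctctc
SDHB (chr1:17054143-17054242, minus strand, bases 210 to 111 before the start): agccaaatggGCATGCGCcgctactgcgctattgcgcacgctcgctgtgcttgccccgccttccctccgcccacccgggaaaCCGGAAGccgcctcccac
COX5B (chr2:97645912-97646061, plus strand, bases 150 to 1 before the start): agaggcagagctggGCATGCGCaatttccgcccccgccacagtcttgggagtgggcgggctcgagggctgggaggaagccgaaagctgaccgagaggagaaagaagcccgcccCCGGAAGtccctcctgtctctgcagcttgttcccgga
COX7C (chr5:86617811-86617927, plus strand, bases 130 to 14 before the start): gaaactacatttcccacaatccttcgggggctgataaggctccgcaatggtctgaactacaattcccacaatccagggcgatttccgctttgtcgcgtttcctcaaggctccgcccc
NDUFS3 holds the GABPA letters on both strands, NDUFB4 holds the NRF1 letters on both strands in an overlapping pair of matches, and SDHB and COX5B hold NRF1 and GABPA letters together. The COX7C stretch holds none of these letters, while UQCRC1, the other nuclear subunit gene called higher, holds YY1 letters 23 bases after its start. The stretches were cut to leave out exons of these and neighbouring genes, apart from 13 bases in the NDUFS3 stretch.

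Over promoters of 250 bases before to 50 bases after the start, 69 of the 85 nuclear subunit genes had an entry, and 64 of these genes were tested for expression. The NRF1 letters stood in 13 of the 64 promoters (20.3%), against 5.49% of the promoters of the 10361 tested genes with an entry and 3.27% of all 27305 promoters. The YY1 letters stood in 21 (32.8%), against 10.1% and 6.82%, and the GABPA letters in 20 (31.2%), against 19.1% and 10.7%. Letters of the estrogen-related receptors (TCAAGGTCA) stood in 1 promoter, that of SDHD. Within the subunit genes, the 40 that were lower after mocetinostat held NRF1 letters in 10 promoters, GABPA letters in 14 and YY1 letters in 15, and the other 24 tested genes held them in 3, 6 and 6. Both strands were searched, GCATGCGC can match both strands in an overlapping pair, and the last bases of CCGGAAG can open a match of AANATGGC. A match is a run of letters and not a bound site, and binding was not measured.

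Deposited counts totalled 4873426 to 11031132 reads in the DMSO libraries and 1619344 to 5089542 in the mocetinostat libraries, so low genes were measured less precisely after mocetinostat. Levels are given as counts per 1e6 counts (CPM) after TMM normalization, and groups were compared by the quasi-likelihood test of edgeR, with adjustment after Benjamini and Hochberg over all 13966 genes tested. A gene is called lower or higher at an adjusted p under 0.05, and it is a downregulated gene (DRG) or upregulated gene (URG) when its log2 fold change is also below -1 or above 1. TC28a2 cells expressed the chondrocyte regulator SOX9 at a mean of 106 CPM in DMSO, whereas COL2A1 and ACAN stood at 2.20 and 4.72 CPM, CNMD had no read, and the fibroblast collagen COL1A1 stood at 4544 CPM. Summed over the 12 chondrocyte markers, the level was 116 to 142 CPM in the DMSO libraries and 262 to 303 CPM in the mocetinostat libraries, and over the 5 fibroblast markers it was 4501 to 5451 and 4031 to 4388 CPM. All 7 chondrocyte markers tested of 12 were higher after mocetinostat (6 by DESeq2 and 6 with no filter), and of 4 fibroblast markers tested of 5, 2 were higher and 2 lower (3 and 1 under GAPDH scaling). Of all genes tested, 32.9% were higher and 31.4% lower in the fit as reported. Log2 fold changes ran from 0.77 (SOX9) to 3.70 (COL2A1) in the first list and from -1.35 (COL3A1) to 2.71 (LUM) in the second. The part of these shifts in the OXPHOS values was not tested. In bulk counts, fewer cells and less RNA per cell cannot be told apart, and every value below is a share of the RNA sequenced.

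Nuclear OXPHOS subunit transcripts were mostly lower after mocetinostat, except under scaling to GAPDH, while 7 of the 13 mitochondrially encoded ones were slightly higher, except when normalization was run without a filter. Of 77 nuclear subunit genes tested, 48 (62.3%) were lower, 2 were higher and 27 did not pass the test, against 31.4% of all genes tested that were lower and 32.9% that were higher. DRGs made up 6 of the 77, against 8.18% of all genes tested. URGs were 0 of the 90 subunit genes tested by edgeR, at an unadjusted p under 0.05 or by DESeq2, against 20.2% of all genes. Under GAPDH scaling 1 nuclear subunit gene, of complex IV, was a URG. In 43 of the 77 genes every mocetinostat library was below every DMSO library and in 2 every one was above, where 32.8% and 33.7% of all genes tested were separated in these directions. The median log2 fold change of the 77 genes was -0.43, a fold of 0.740, and was 0.11 under scaling to GAPDH, with that of all genes tested at -0.00 and 0.53. Of the 13 mitochondrially encoded genes, 7 were higher, 1 was lower and 5 did not pass the test (12 higher and 0 lower with GAPDH scaling, 0 and 5 with no filter), with a median log2 fold change of 0.16 that turned to -0.093 when the normalization factors were computed without a filter on low counts.

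**Figure D1:**
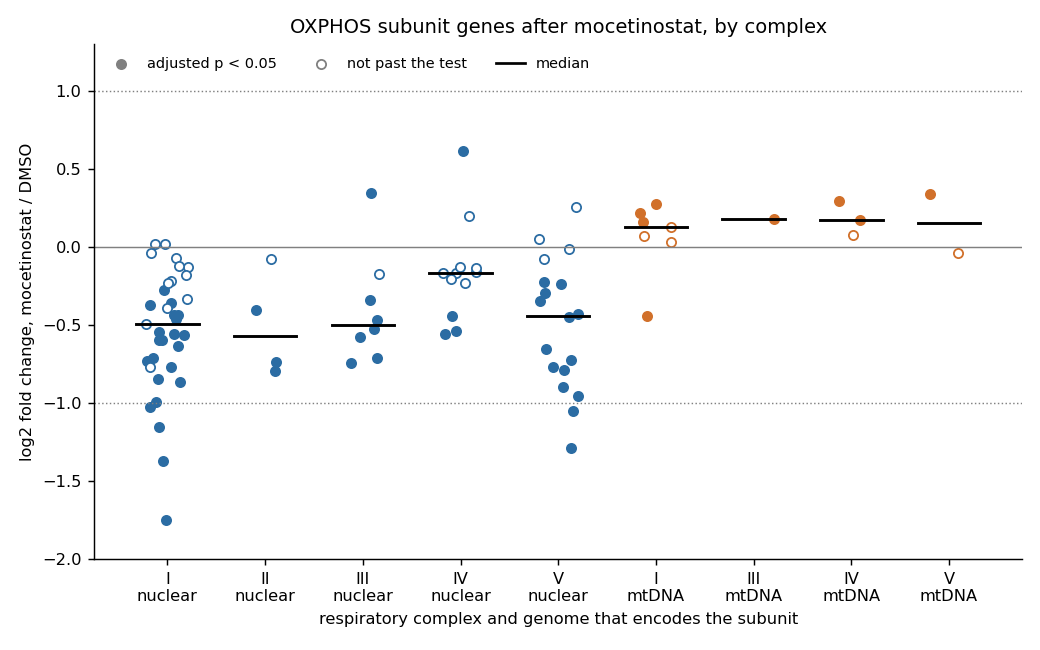
Log2 fold change (mocetinostat over DMSO, vertical axis) of each tested subunit gene by complex and genome; filled points passed an adjusted p of 0.05, open points did not, and bars are medians. Nuclear genes of complexes I, II, III and V have medians from -0.57 to -0.44 and those of complex IV a median of -0.16, whereas mitochondrially encoded genes lie between -0.45 and 0.34; with scaling to GAPDH the nuclear medians lie between -0.033 and 0.37.

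The sign of these medians depended on what the libraries were scaled to. The distance from the other genes hardly can, because a change of scaling moves all genes nearly alike. GAPDH itself was lower after mocetinostat (log2 fold change -0.53, SE 0.0590, adjusted p = 2.58e-12), and scaling to it moved the median of all genes to 0.53 and left 7 nuclear subunit genes lower and 24 higher. The same shift applies to every gene and list described here. Without a filter the normalization factors moved the median of the same genes to -0.25. Under GAPDH scaling, without a filter and in the fit as reported alike, 70 of the 77 nuclear subunit genes lay below the median of all genes. The shares of all genes called lower or higher under GAPDH scaling or without a filter are not given here. Counts of lower and higher genes in those fits therefore cannot be compared with the shares of all genes in the fit as reported. Measured from the median of all genes, the nuclear subunits stood at -0.43 in each of these 3 fits and between -0.48 and -0.35 over all 17 fits. The mitochondrially encoded genes stood 0.16 above that median as reported and between 0.14 and 0.38 above it over the same fits. Fits that differ only in scaling were bound to give nearly the same distances, so only the other fits could have moved them. In the plot of medians by processing choice the nuclear points lie left of the mark for all genes in every line.

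**Figure D2:**
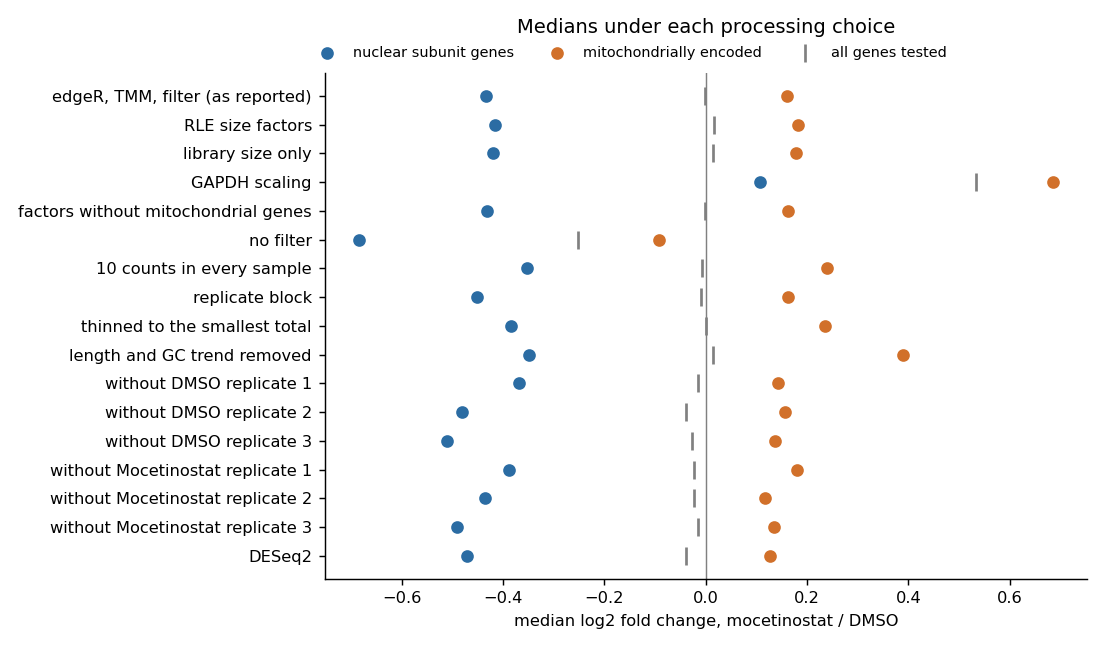
Median log2 fold change (horizontal axis) of 77 nuclear subunit genes, 13 mitochondrially encoded genes and all 13966 genes tested, under each processing choice (lines), over those of these genes that each choice kept. The nuclear median lies below the median of all genes and the mitochondrially encoded median above it in all 17 lines, while GAPDH scaling moves all 3 marks to the right past zero and the fit with no filter moves them to the left. Lines that differ only in scaling were bound to show nearly the same distances between the marks.

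Complex I held the 2 lowest log2 fold changes of all subunit genes, those of NDUFS3 and NDUFA9. Of 35 nuclear genes tested, 22 were lower (4, with 6 higher, under GAPDH scaling), 0 were higher by edgeR, at an unadjusted p under 0.05 or by DESeq2, and 33 had a log2 fold change below zero, with a median of -0.49 (0.054 under GAPDH scaling). By role, 6 of the 7 nuclear core subunits, which carry the flavin and the iron-sulfur clusters, were lower (median -0.57), as were 16 of 28 accessory subunits (median -0.45). NDUFS3, a core subunit of the arm that reaches into the matrix and one of the genes with GABPA letters before its start, was at 52.7, 50.2 and 58.4 CPM in DMSO and at 13.7, 18.6 and 17.8 CPM after mocetinostat. The groups were far apart, with a fold of 0.297 (log2 fold change -1.75, SE 0.165, adjusted p = 3.47e-15). Of its annotated exon length, 16.0% is shared with PTPMT1 on the same strand and 5.19% lies opposite CELF1. Other core subunits were lower by less, among them NDUFS7 (log2 fold change -0.60), NDUFS1 (-0.57), NDUFV1 (-0.56) and NDUFS8 (-0.37), each with separate groups. NDUFV2 stood at 6.15, 6.87 and 7.07 CPM against 5.75, 6.82 and 5.39 CPM and did not pass (adjusted p = 0.656 by the same edgeR test).

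Among the 28 accessory subunits of complex I tested, 3 were DRGs, where DRGs made up 8.18% of all genes tested. NDUFA9, which stabilizes the junction between the arms, was at 15.8, 19.6 and 14.001 CPM in DMSO and 7.14, 4.96 and 5.80 CPM after mocetinostat (log2 fold change -1.37, SE 0.262, adjusted p = 4.93e-06), the last from only 36, 8 and 14 counts. NDUFC2, an accessory subunit of the membrane arm, was at 17.2, 13.5 and 8.11 against 6.34, 6.20 and 4.97 CPM (log2 fold change -1.15, SE 0.290, adjusted p = 0.000408), with DMSO libraries that differed more than 2-fold among themselves. NDUFA1, an X-linked membrane subunit, was at 35.7, 26.7 and 21.96 against 13.3, 13.6 and 15.3 CPM (log2 fold change -1.03, SE 0.201, adjusted p = 8.39e-06). In all 3 the groups did not overlap, as in 32.8% of all genes tested in this direction. NDUFA10, at 106, 119 and 125 against 51.9, 57.6 and 68.0 CPM, lay just short of the fold threshold of a DRG (log2 fold change -0.99) with a smaller error (SE 0.117) than the 3. By gene family, 7 of 8 NDUFS, 6 of 11 NDUFA, 6 of 11 NDUFB, both NDUFC and 1 of 3 NDUFV genes were lower. At the other end stood NDUFA2 (23.6, 18.9 and 22.4 against 20.2, 22.3 and 24.9 CPM; log2 fold change 0.02) and NDUFV3 (55.9, 68.1 and 73.7 against 73.6, 52.7 and 68.0 CPM; log2 fold change 0.02), whose groups overlapped. NDUFA13 had the widest scatter, at 2.44, 4.998 and 4.42 against 1.39, 4.96 and 1.66 CPM, and its log2 fold change of -0.77 did not pass (adjusted p = 0.182, edgeR).

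Complex II is made by the nucleus alone, and 3 of its 4 genes were lower. The membrane anchors SDHC and SDHD, which hold the heme and bind ubiquinone, were both lower: SDHC was at 60.0, 57.7 and 52.9 CPM in DMSO and 37.9, 26.6 and 34.4 CPM after mocetinostat (log2 fold change -0.74, SE 0.140, adjusted p = 4.08e-06), and SDHD was at 33.6, 23.3 and 22.1 against 15.7, 20.5 and 11.2 CPM (log2 fold change -0.80, SE 0.203, adjusted p = 0.000457). SDHB, the iron-sulfur subunit, was at 99.9, 90.6 and 91.4 against 74.7, 78.1 and 61.3 CPM (log2 fold change -0.40, SE 0.115, adjusted p = 0.00176). SDHA, the flavoprotein, was at 34.5, 34.2 and 32.4 against 32.5, 37.8 and 26.5 CPM with overlapping groups and did not pass the test (log2 fold change -0.08, SE 0.158, adjusted p = 0.686). The median of the 4 genes was -0.57 (-0.033 under GAPDH scaling, with 0 lower and 1 higher). The calls for SDHB and SDHD were lost when each library was thinned to as few reads as the smallest held.

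In complex III, 6 of 8 nuclear genes were lower and 1 was higher, with a median of -0.50 (0.041 under GAPDH scaling, with 0 lower and 2 higher). The core proteins UQCRC1 and UQCRC2, which form a pair in the complex, went opposite ways. UQCRC2 was at 166, 144 and 125 CPM in DMSO and 82.5, 104 and 84.5 CPM after mocetinostat (log2 fold change -0.71, SE 0.108, adjusted p = 3.21e-08), whereas UQCRC1 was at 249, 259.9 and 287 against 331, 354 and 325 CPM (log2 fold change 0.34, SE 0.0803, adjusted p = 0.000142). Neither pair of groups overlapped, and the difference between the 2 genes was not tested. UQCRFS1, the Rieske iron-sulfur protein, was lower (log2 fold change -0.58), as were the accessory subunits UQCR10 (46.0, 43.3 and 38.2 against 20.2, 33.5 and 26.9 CPM; log2 fold change -0.75), UQCRH (-0.53), UQCR11 (-0.47) and UQCRB (-0.34). UQCRQ, at 90.7, 79.1 and 93.3 against 84.9, 69.4 and 76.7 CPM, had overlapping groups and did not pass (adjusted p = 0.185, edgeR). UQCRHL, an intronless near-copy of UQCRH that can share its reads, stood at 10.3, 7.08 and 8.25 against 9.32, 11.8 and 11.6 CPM and did not pass either, so the split of reads between the copies is uncertain.

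Complex IV had the smallest share of lower genes under TMM scaling and by DESeq2, but not when the filter on low counts was dropped (9 of 12, against 26 of 35 in complex I) or under GAPDH scaling, where complexes II and III also had 0. Of 12 nuclear genes tested, 3 were lower, 1 was higher and 8 did not pass. With so few genes, that share of lower genes (25%) is near the 31.4% of all genes. The median of -0.16 was the closest to zero of the 5 complexes, whereas under GAPDH scaling it was the farthest (0.37, with 0 lower and 8 higher). COX7C, a small subunit of the membrane, was the highest of all 77 nuclear subunit genes, at 99.8, 102 and 129.98 CPM in DMSO and 153, 174 and 183 CPM after mocetinostat (log2 fold change 0.61, SE 0.101, adjusted p = 2.2e-07). COX6C, the next within complex IV, was at 74.3, 91.8 and 105 against 109, 94.2 and 104 CPM and did not pass (log2 fold change 0.20, adjusted p = 0.112, edgeR). The lower genes were COX6B1 (79.3, 81.2 and 71.6 against 47.0, 58.3 and 55.5 CPM; log2 fold change -0.56), COX8A (19.5, 14.8 and 13.7 against 10.9, 9.92 and 12.4 CPM; -0.54) and COX7A2 (48.9, 34.6 and 37.1 against 27.95, 21.1 and 39.8 CPM; -0.44). Only COX6B1 of the 3 was also called by DESeq2 and without DMSO replicate 1. In all, DESeq2 called 2 nuclear genes of complex IV lower. COX4I1, COX5A, COX5B, COX6A1, COX7B, COX7A2L and NDUFA4 had log2 fold changes between -0.23 and -0.13 and did not pass the test.

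Several complex IV subunits have a ubiquitous form and a form of particular tissues or states, and in TC28a2 cells nearly all reads were from the ubiquitous ones. COX4I2 (lung and hypoxia), COX6A2 (muscle), COX7B2 and COX8C had no read in any library, and COX7A1 (muscle) had 1 read in 1 mocetinostat library. A count of 0 allows up to 3 counts in a library, by counting error alone. NDUFA4L2, the hypoxia-inducible paralog of NDUFA4, had 7, 3 and 5 reads in DMSO and 7, 0 and 0 after mocetinostat; NDUFA4 itself had 387, 126 and 133 and 121, 40 and 51 reads. COX6B2, a form known from testis, had 1, 0 and 6 reads in DMSO and 22, 6 and 3 after mocetinostat, although the mocetinostat libraries were smaller. It lay under the filter on low counts and was called higher when the filter was dropped (log2 fold change 2.99, adjusted p = 0.00104, edgeR) and by DESeq2 (3.23, adjusted p = 0.00923). These 7 genes and NDUFA7 of complex I, with 12, 5 and 4 and 5, 2 and 1 reads, are the 8 subunit genes that were not tested.

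In complex V, 14 of 18 nuclear genes were lower and 0 were higher by edgeR, at an unadjusted p under 0.05 or by DESeq2, with a median of -0.44 (0.10 under GAPDH scaling, with 3 lower and 7 higher). By position in the enzyme, all 5 small accessory subunits of the membrane part were lower (ATP5MG -0.95, ATP5MF -0.90, ATP5ME -0.79, ATP5MPL -0.72 and ATP5MD -0.43 on the log2 scale). Of 4 subunits of the peripheral stalk, 3 were lower. ATP5PB, the long helical subunit of that stalk, was at 103, 89.8 and 75.2 CPM in DMSO and 40.4, 21.7 and 43.1 CPM after mocetinostat (log2 fold change -1.29, SE 0.142, adjusted p = 1.43e-12), its lowest value coming from 35 counts. ATP5PD of the same stalk was at 55.2, 57.7 and 74.3 against 58.1, 80.6 and 60.1 CPM and did not pass (adjusted p = 0.74, edgeR). The catalytic F1 head showed smaller decreases, with 4 of 5 genes lower and log2 fold changes from -0.45 (ATP5F1C) to -0.02 (ATP5F1D). The c ring of the rotor is encoded by 3 genes whose mature proteins are identical. ATP5MC2, with NRF1 letters before its start, was at 61.3, 58.5 and 48.5 against 22.6, 39.0 and 24.9 CPM (log2 fold change -1.05, SE 0.154, adjusted p = 1.18e-08) and ATP5MC1 was lower too (log2 fold change -0.65), while ATP5MC3, the one with the most counts, stood at 86.5, 69.8 and 69.0 against 67.2, 86.8 and 65.1 CPM and did not pass. ATP5IF1, the inhibitor of ATP hydrolysis, was at 43.2, 60.4 and 70.4 against 69.4, 66.3 and 69.6 CPM (log2 fold change 0.26, adjusted p = 0.0848, edgeR).

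**Figure D3:**
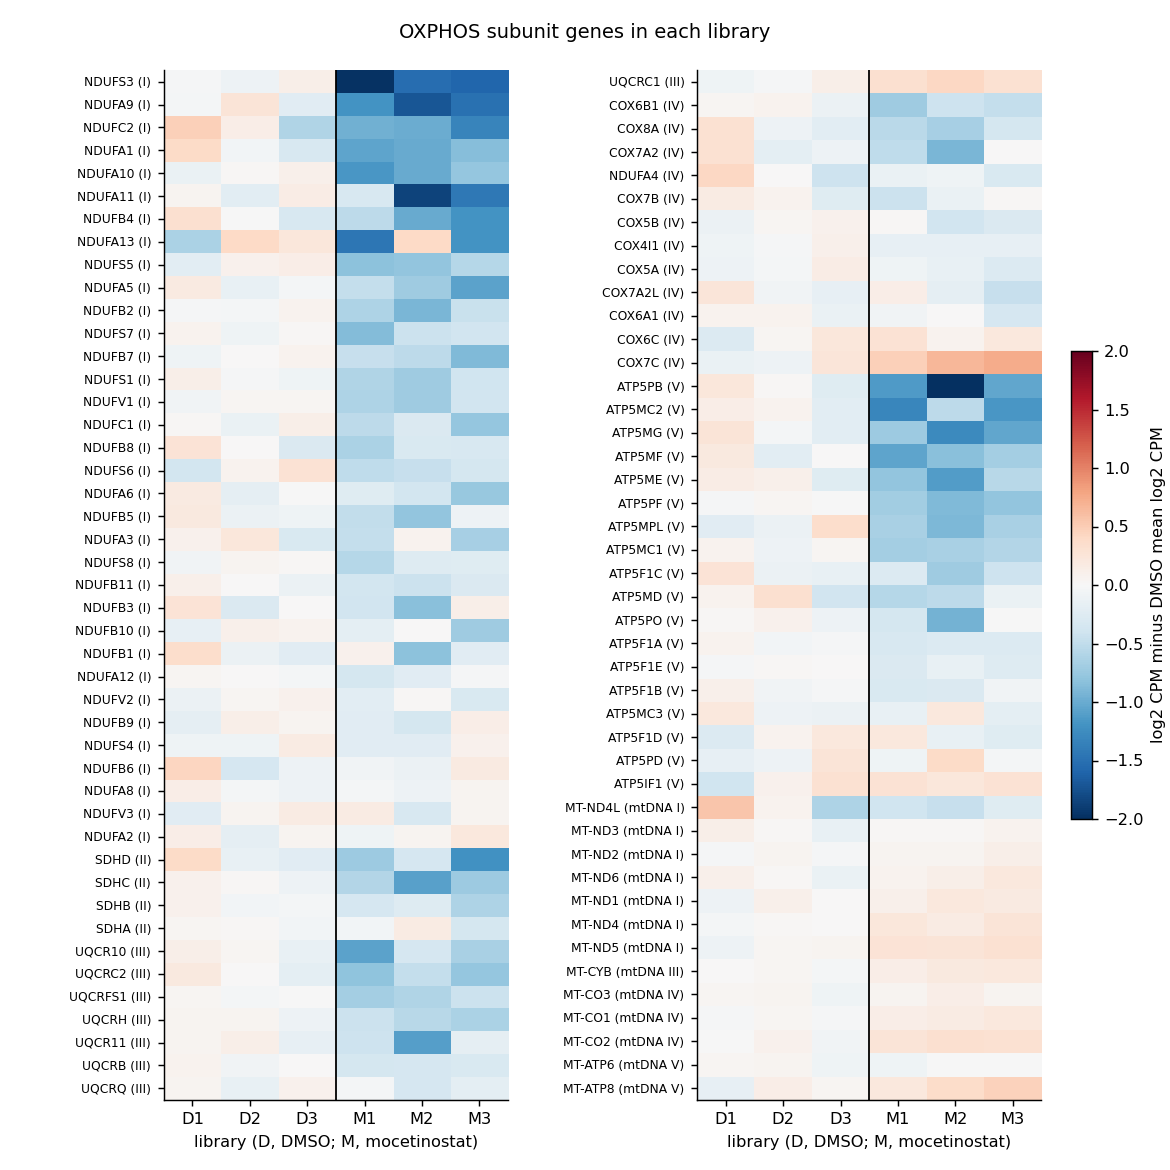
Heat map of the tested subunit genes, apart from 1 that is not reported here (rows, with their complex), in 3 DMSO libraries (D1 to D3) and 3 mocetinostat libraries (M1 to M3); colour is log2 CPM minus the gene's mean log2 CPM in DMSO, and the scale ends at 2 in either direction. NDUFS3, NDUFA9 and ATP5PB are blue in all 3 mocetinostat libraries and COX7C is light red there. UQCRC1 is pale red, and the mitochondrially encoded rows at the lower right are mostly pale. The blue of the nuclear rows is relative to TMM scaling, and their median turns positive when libraries are scaled to GAPDH.

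The libraries of each group moved together, as the heat map shows. The median shift of the nuclear subunit genes from their DMSO mean was -0.43, -0.40 and -0.35 on the log2 scale in the 3 mocetinostat libraries and between -0.03 and 0.07 in the DMSO libraries. The same quantity over all genes tested stayed within 0.01 of zero in every library. Exons of several members overlap other genes, and the strand setting of the counting is not stated, so reads on either strand may be included. Of the exon length of ATP5ME, 61.3% lies opposite MYL5, and of ATP5PF 34.4% lies opposite GABPA, which was itself lower. Of COX8A, 35.4% is shared with another locus on its strand.

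The 13 mRNAs of mtDNA were far more abundant per length than the nuclear ones. In DMSO the median over mitochondrially encoded genes was 2432 CPM per kilobase of exon, and that over the nuclear subunit genes was 19.5. Length was the union of the exons of all annotated transcripts, for instance 19.4 kb for NDUFA10 and 0.956 kb for MT-ND1. A union longer than the mRNA lowers the value per kilobase, so the size of this gap may be overstated. By single gene, MT-CO2 was at 3748, 4001 and 3625 CPM in DMSO and 4549, 4727 and 4685 CPM after mocetinostat (log2 fold change 0.30, SE 0.0560, adjusted p = 4.25e-06). MT-ND5 (3043, 3346 and 3365 against 3916, 3879 and 4004 CPM; log2 fold change 0.27), MT-ND4 (5462, 5711 and 5667 against 6562, 6256 and 6744 CPM; 0.22), MT-CYB (2342, 2394 and 2284 against 2571, 2672 and 2699.6 CPM; 0.18), MT-CO1 (3861, 4012 and 3863 against 4274, 4386 and 4547 CPM; 0.17) and MT-ND1 (2681, 3085 and 2905 against 3093, 3332 and 3269 CPM; 0.16) were higher as well. In each of these 6 genes every mocetinostat library was above every DMSO library, as in 33.7% of all genes tested, and the folds were at most 1.23. MT-ATP8, whose short reading frame overlaps that of MT-ATP6, was at 120.4, 147 and 138 against 155, 174 and 185 CPM (log2 fold change 0.34, SE 0.0960, adjusted p = 0.00158), while MT-ATP6 was at 1883, 1907 and 1739 against 1734, 1832 and 1826 CPM (adjusted p = 0.619, edgeR). These 2 lie on 1 transcript, and 22.2% of the MT-ATP8 gene is shared with MT-ATP6. MT-ND2, MT-ND3, MT-CO3 and MT-ND6, the last being the subunit encoded on the other strand of mtDNA, had log2 fold changes of 0.07, 0.03, 0.08 and 0.13 and did not pass.

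MT-ND4L was the one mitochondrially encoded gene called lower. It was at 255, 182 and 114 CPM in DMSO and at 133, 127 and 147 CPM after mocetinostat (log2 fold change -0.45, SE 0.125, adjusted p = 0.0014). The groups overlapped, and DMSO replicate 1 was the highest of the 6 libraries. Without it the log2 fold change was -0.13 (adjusted p = 0.232, edgeR), and DESeq2 did not call it. MT-ND4L shares a transcript with MT-ND4, which was called higher. The calls of higher mitochondrially encoded genes numbered 4 without mocetinostat replicate 3, where MT-ND1, MT-CO1 and MT-CYB no longer passed.

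Within a library, the ratio of mitochondrially encoded to nuclear subunit counts does not depend on the scaling between libraries. It was 4.84, 5.20 and 4.85 in the DMSO libraries and 6.94, 7.05 and 6.92 in the mocetinostat libraries, or 4.97 ± 0.207 and 6.97 ± 0.0722 (SD, n = 3), 1.40-fold higher with no overlap. Without MT-ND4 and ATP5F1B, the most abundant gene on either side, it was 4.40 ± 0.187 and 6.17 ± 0.101. In CPM the nuclear sum went from 5988 ± 70.0 to 4815 ± 115 and the mitochondrially encoded sum from 29727 ± 888 to 33561 ± 639 (SD, n = 3), folds of 0.804 and 1.13. The ratio thus moved more through the nuclear side than through the mitochondrial side, a division that depends on the scaling: per GAPDH count, the nuclear sum was 1.16 and the mitochondrially encoded sum 1.63 times as high after mocetinostat as in DMSO. By complex, the ratio went from 7.62 ± 0.236 to 12.2 ± 0.375 in complex I, from 2.76 ± 0.108 to 3.52 ± 0.0942 in complex III, from 10.4 ± 0.622 to 12.4 ± 0.285 in complex IV and from 1.01 ± 0.0522 to 1.27 ± 0.0387 in complex V. It was higher in every mocetinostat library than in any DMSO library for all 4 complexes of mixed origin, with folds of 1.603, 1.27, 1.19 and 1.25. No test was run on these sums.

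**Figure D4:**
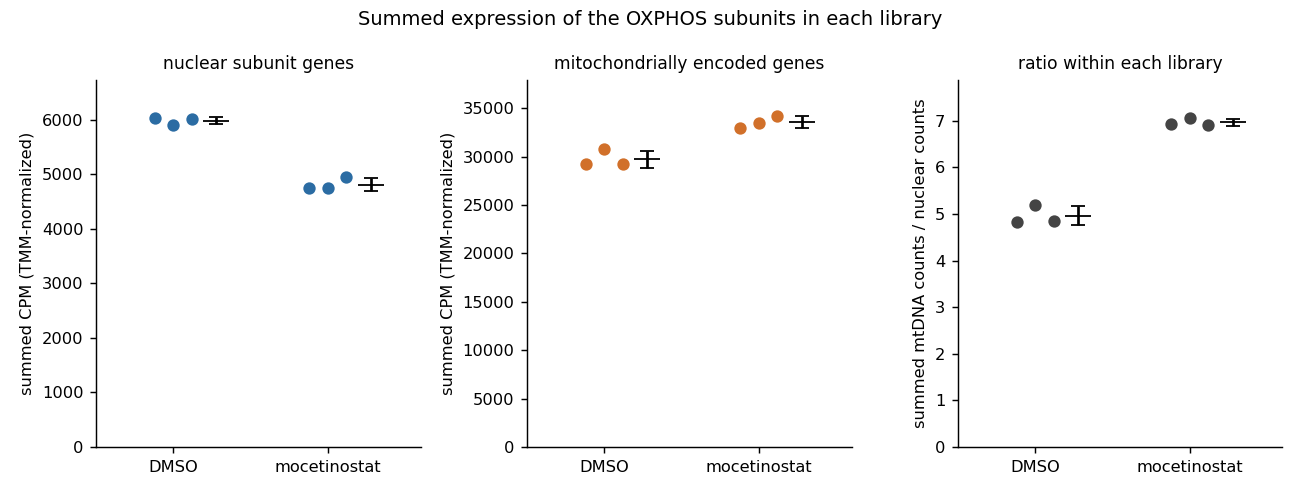
Summed TMM-normalized CPM of the nuclear subunit genes (left), of the mitochondrially encoded genes (middle) and the ratio of their summed counts (right) in each of 3 libraries per group, with the mean and SD beside the points. The nuclear sum lies lower in all 3 mocetinostat libraries, the mitochondrially encoded sum and the ratio lie higher; the ratio does not depend on scaling, whereas per GAPDH count the nuclear sum is higher after mocetinostat, with a fold of 1.16.

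By complex, the nuclear sums were closest between the groups in complex IV in TMM-normalized CPM, whereas per GAPDH count they were closest in complex I, with folds of 1.02, 1.04, 1.28, 1.39 and 1.15 for complexes I to V. In CPM they went from 2000.0 ± 47.7 to 1417 ± 75.9 CPM in complex I (fold 0.709), from 211 ± 15.2 to 152 ± 16.5 in complex II (0.723), from 848 ± 20.7 to 753 ± 20.02 in complex III (0.888), from 976 ± 26.4 to 939 ± 12.1 in complex IV (0.963) and from 1954 ± 64.8 to 1553 ± 53.5 in complex V (0.795). The ratio of nuclear complex I counts to nuclear complex IV counts, free of scaling, was 2.04, 2.07 and 2.04 in DMSO and 1.49, 1.46 and 1.58 after mocetinostat. The groups did not overlap in this ratio. UQCRC1, which was higher, held the most counts of the nuclear complex III genes.

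Among the regulators of nuclear OXPHOS genes, most DNA-binding factors were lower and 2 coactivators were higher. Of 9 tested of 10 genes listed, 6 were lower (66.7%) and 2 higher (22.2%), or 4 and 3 under GAPDH scaling. In the fit as reported, 31.4% of all genes tested were lower and 32.9% higher. With 9 genes, the share of higher regulators cannot be told from that of all genes. NRF1 was at 25.9, 23.9 and 31.1 CPM in DMSO and 8.33, 8.68 and 7.46 CPM after mocetinostat (log2 fold change -1.73, SE 0.220, adjusted p = 1.86e-10). GABPA was at 35.2, 38.1 and 40.8 against 16.1, 16.7 and 17.8 CPM (log2 fold change -1.18, SE 0.175, adjusted p = 1.54e-08), and its partner GABPB1 (-0.99), YY1 (-0.74), SP1 (-0.39) and the coactivator PPRC1 (-1.19) were lower as well. PPARGC1A, the coactivator PGC-1alpha, was at 0.905, 0.833 and 0.147 against 20.4, 26.03 and 21.96 CPM (log2 fold change 5.05, SE 0.373, adjusted p = 5.68e-20), with 10, 4 and 1 counts in DMSO, and PPARGC1B was at a log2 fold change of 0.38, also higher, a call lost by DESeq2 and with no filter. ESRRA, at 24.1, 20.8 and 27.1 against 22.01, 29.7 and 24.04 CPM, did not pass (adjusted p = 0.92, edgeR). ESRRG, the gene not tested, lay under the filter on low counts, with 2, 0 and 2 reads in DMSO and 6, 12 and 6 after mocetinostat. How these values bear on the subunit genes was not tested.

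Of 23 genes that transcribe mtDNA or handle its RNA, all tested, 19 were lower and 0 were higher by edgeR, at an unadjusted p under 0.05 or by DESeq2, with a median log2 fold change of -0.71 (-0.17 under GAPDH scaling, with 8 lower and 4 higher). POLRMT, the mitochondrial RNA polymerase, was at 94.7, 106 and 117 against 74.1, 85.5 and 68.4 CPM (-0.49), and its initiation factors TFB2M (-1.11) and TFAM (-0.25) were lower. PRORP, the nuclease subunit of mitochondrial RNase P, was the lowest of the list, at 12.5, 11.5 and 13.3 against 3.37, 5.58 and 0.414 CPM (log2 fold change -2.06, SE 0.349, adjusted p = 4.34e-07), and REXO2, an oligonucleotide exonuclease, was the highest (0.00, not past the test). Of 6 genes of mtDNA replication, 4 were lower (1, with 2 higher, under GAPDH scaling), led by the helicase TWNK (-1.03), and POLG, the polymerase, stood at 0.18 and did not pass. The assembly factors were mixed, with 16 of 48 tested of 51 listed lower, 4 higher and a median of -0.22 (5 lower, 19 higher and 0.31 under GAPDH scaling). DESeq2 called 10 of them lower, and with no filter 23 were lower with a median of -0.47. Complex IV factors held both ends of that list, COA6 (19.5, 23.9 and 24.2 against 8.72, 4.34 and 10.8 CPM; -1.41) and CMC1 (14.4, 17.9 and 16.5 against 31.3, 38.4 and 37.3 CPM; 1.12), and 9 of 19 of its tested factors were lower. In the fit as reported, the share of all genes that were lower was 31.4%, against 33.3% of the assembly factors and 82.6% of the genes for mtDNA transcription and RNA handling.

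**Figure D5:**
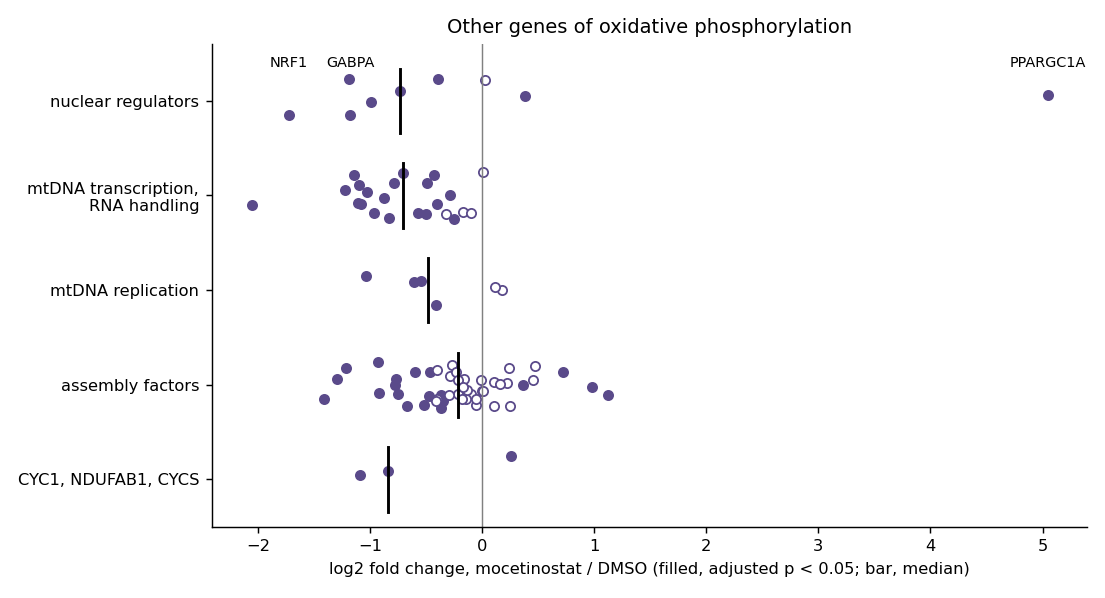
Log2 fold change (mocetinostat over DMSO, horizontal axis) of each tested gene in 5 lists of OXPHOS biogenesis; filled points passed an adjusted p of 0.05 and bars are medians. Genes of mtDNA transcription and RNA handling lie at or below zero, assembly factors lie on both sides, and PPARGC1A lies alone at 5.05; all positions are relative to TMM scaling, and GAPDH scaling moves the median of all genes to 0.53.

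The name rule misses some subunits. CYC1, the cytochrome c1 subunit of complex III, was at 88.3, 95.6 and 86.1 against 37.7, 39.0 and 51.0 CPM (log2 fold change -1.09, SE 0.128, adjusted p = 1.47e-11), and NDUFAB1, the acyl carrier subunit of complex I, was at 97.97, 107 and 121 against 66.4, 54.5 and 58.02 CPM (log2 fold change -0.84, SE 0.117, adjusted p = 2.65e-09). CYCS, the mobile carrier cytochrome c, was at 95.3, 71.4 and 74.4 against 97.7, 79.3 and 111 CPM with overlapping groups (log2 fold change 0.26, SE 0.117, adjusted p = 0.0463). The log2 fold change of CYC1 was thus below those of all 8 complex III genes that the rule found, and the call of CYCS as higher was lost by DESeq2 and with no filter. Of the loci that share a subunit's name without being a subunit, NDUFA6-DT, transcribed away from NDUFA6, was at 2.08, 0.625 and 2.95 against 6.34, 1.86 and 2.90 CPM (log2 fold change 1.09, SE 0.480, adjusted p = 0.0411), and NDUFB2-AS1 had 15, 21 and 17 reads in DMSO and 2, 1 and 0 after mocetinostat, under the filter on low counts.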

How the data were processed

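Reads were aligned to GRCh38 with STAR 2.6.1d and assigned to genes with featureCounts 1.6.4 by the authors (submitters' processing notes; their own comparison used DESeq2 1.20.0), who deposited the raw counts per gene. Adapters had been trimmed and ribosomal reads removed. The strand setting and the treatment of reads that map to several places are not given in the sources used here. From the counts, TMM factors, a filter on low counts (filterByExpr, minimum 10) and edgeR 4.0.16 quasi-likelihood tests in R 4.3.3 were computed over 13966 genes of all 6 libraries with treatment as the only term and Benjamini-Hochberg adjustment. The SE of a log2 fold change is its size divided by the square root of F. The biological coefficient of variation was 9.30%. The p-values measure the spread between 3 libraries per group of 1 cell line. The fitting procedure was tested on simulated data.

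Same-numbered libraries did not deviate together (correlations -0.02 to 0.01), so the numbers were not treated as pairs. Replicates differed by more than sampling noise (chi-square per degree of freedom 1.91 to 8.35). Positions and exon overlaps came from GENCODE 44, which matched 99.5% of gene IDs. For each gene the first RefSeq start listed was used. Genes named in the text are all mitochondrially encoded genes, in each complex the 2 highest and 2 lowest nuclear genes, every DRG or URG, the complex IV isoform pairs, CYC1, NDUFAB1, CYCS and GAPDH, and the ends of each further list; other names illustrate roles. The values of 1 subunit gene are not reported here, although it is part of the counts, medians and sums. The genes and lists were chosen with earlier results of these data known. The alternatives were other scalings, filters, a replicate block, thinning, removal of length and GC trends, leaving out each library, and DESeq2 1.42.0.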

Additional observations from a re-analysis of the deposited data

How the results depend on the processing

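With GAPDH scaling, 7 nuclear genes were lower, 24 higher, 1 a DRG and 1 a URG, and 12 mitochondrially encoded genes were higher and 0 lower. The medians were 0.054, -0.033, 0.041, 0.37 and 0.10 for complexes I to V, 0.11 for all nuclear and 0.68 for mitochondrially encoded genes. With no filter, 15 nuclear genes were DRGs, 5 mitochondrially encoded genes were lower and 0 higher (7 as reported), and the medians were -0.74, -0.82, -0.75, -0.42, -0.69, -0.68 and -0.093. With 10 counts required in every sample, 4 nuclear genes were higher, 3 were DRGs, and the medians were -0.38 (I), -0.42 (III), -0.085 (IV), -0.36 (V), -0.35 (nuclear) and 0.24 (mitochondrially encoded). Thinned to the smallest total, 4 nuclear genes were higher and the medians were -0.36 (II), -0.28 (V), -0.38 (nuclear) and 0.24 (mitochondrially encoded). With length and GC trends removed, 4 nuclear genes were higher, 12 mitochondrially encoded genes were higher and 0 lower, the medians were -0.41 (II), -0.40 (III), -0.051 (IV), -0.33 (V), -0.35 (nuclear) and 0.39 (mitochondrially encoded), and the difference between the last 2 was 0.74 (0.59 as reported). By DESeq2, 42 nuclear genes were lower and 0 mitochondrially encoded genes were. The cause of these shifts was not tested. Shares of all genes called lower or higher are given for the fit as reported only, so the counts in the alternatives have no such background.

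Leaving out 1 library at a time gave 38 to 50 nuclear genes lower, 2 to 5 higher (5 without DMSO replicate 3), 4 to 9 DRGs, 0 to 1 mitochondrially encoded gene lower and 4 to 7 higher. The medians ran from -0.56 to -0.43 (I), -0.65 to -0.47 (II), -0.59 to -0.45 (III), -0.25 to -0.15 (IV), -0.56 to -0.38 (V), -0.51 to -0.37 (nuclear) and 0.12 to 0.18 (mitochondrially encoded), their difference from 0.51 to 0.65, and the log2 fold of the count ratio from 0.47 to 0.52. A replicate block gave 48 nuclear genes lower and 3 higher, with all 48 shared, and no same-numbered pair correlated above 0.02. RLE factors, library size alone and factors without mitochondrial genes moved no named gene past the threshold. No named gene that passed in both fits changed direction in any alternative. Whether or not they passed, 11 of 40 named genes had the other sign under GAPDH scaling and 12 of 40 with no filter. In these 2 fits 10 and 8 named genes lost their call, and 15 and 8 gained one. Low depth after mocetinostat limits genes under about 10 counts, and a count of 0 there allows up to 3 counts by counting error alone.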
